A study of Homo sapiens with 4 samples.

Results

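The replication-dependent histone genes of human chromosomes 1 and 6 were examined for 3 histone marks in MCF10A, an immortalised and non-malignant human mammary epithelial cell line. Members were the protein-coding genes on these chromosomes whose symbols are H1-1 to H1-6 or H2AC, H2BC, H3C or H4C followed by a number. The rule used no measured value, and 68 of 19974 protein-coding genes on chromosomes 1 to 22 and X met it. Of these, 6 encode H1, 17 encode H2A, 18 encode H2B, 13 encode H3 and 14 encode H4. Chromatin immunoprecipitation and sequencing had been done with antibodies to H3K4me3 (Millipore 07-473), H3K79me2 (Abcam Ab3594-100) and H3K27me3 (Abcam Ab6002), with 1 library each, and the input DNA library was not analysed here. All cells grew in MEGM, a mammary epithelial growth medium, containing 100 ng/ml cholera toxin. The labels give no contrast between treatments and no stage of the cell cycle. With 1 library per mark there is no replicate error and no test, and read depth is unknown, so every comparison describes these libraries.

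Histone genes of this kind are transcribed in S phase, when new nucleosomes are needed behind the replication fork, and they lie in clusters that gather in a nuclear structure called the histone locus body. The coactivator NPAT, a target of cyclin E and CDK2, acts across these clusters. They are known for lacking introns, and their mRNAs end in a stem-loop bound by SLBP in place of a poly(A) tail. H2A, H2B, H3 and H4 form the nucleosome core and H1 binds the linker DNA, while H2AC1, H2BC1 and H1-6 encode forms known from the testis. H3K4me3 marks active and poised promoters, H3K79me2 is laid down by DOT1L over the beginning of transcribed genes, and H3K27me3 is the mark of Polycomb repression.

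The gene records, taken from RefSeq on GRCh38.p14, had a median length of 494 bp. They ran from 386 bp to 29682 bp, and 60 of 68 were at most 1000 bp long. The 6 records over 3000 bp were those of H2BC18, H4C15, H2BC5, H2BC4, H2BC12 and H3C6. A record spans all transcripts of its gene, so a long one holds more than the usual short histone mRNA. H2AC19 and H3C15 lie inside the record of H4C15, H2AC7 inside that of H3C4, and H4C9 inside that of H2BC12. Some genes are near-exact copies, and the labels do not say how reads matching several places were handled. The 300-base promoters of H4C14 and H4C15 are identical, as are those of H3C14 and H3C15 over 296 bases and those of H2AC18 and H2AC19 over 299 bases. H4C11 and H4C12 differ at 5 of 300 bases.

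As a check of the cell line, 7 epithelial genes were called by the gene-end rule described below. H3K4me3 and H3K79me2 were both called at 6 of them (KRT5, KRT14, KRT6A, CDH1, EGFR and ITGB4), and H3K27me3 at 0. The shares of 19906 other protein-coding genes with these 3 marks were 67.8%, 51% and 9.12%. TP63 was the exception by the gene-end rule, and it had a 9.53-fold H3K4me3 peak elsewhere in its record. The 6 germ cell genes DDX4, DAZL, SYCP3, TNP1, PRM1 and PRM2 had 0 calls for any mark. The deposited lists held 67781 peaks of H3K4me3, 112731 of H3K79me2 and 393202 of H3K27me3.

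H3K4me3 lay over nearly the whole family. A mark was called where peaks covered at least 25% of a record with 500 bp on each side. By this rule 61 of 68 histone genes (89.7%) had H3K4me3, against 33.9% of the 1844 other protein-coding genes with records of up to 3000 bp, called other short genes here. H3K79me2 was called at 26 of 68 (38.2%), against 23.5% of the other short genes. That order turned under other settings, with 16.2% of histone genes against 17.7% of the other short genes where −log10 q had to be at least 1.3, 20.6% against 23.2% without the flank and 13.2% against 19% where 50% had to be covered. H3K27me3 was called at 0 of 68, against 7.59%. All 26 histone genes with H3K79me2 also had H3K4me3, 35 had H3K4me3 alone and 7 had no mark (10.3%, against 58.3% of the other short genes).

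Peak strength is given as the authors' fold over the caller's background, for the strongest peak touching a record. Among the 61 genes with H3K4me3 it ran from 6.01-fold to 19.3-fold, with a median of 15.0-fold. Within the H3K4me3 list these peaks ranked between the 77.9th and the 96.1st percentile, with a median percentile of 88.6. Coverage was seldom partial, since peaks covered 100% of the window at 52 of the 61 genes.

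The linker histone genes H1-1 to H1-5 all carried H3K4me3, at 8.07-fold, 16.4-fold, 9.27-fold, 16.7-fold and 16.9-fold in numerical order. H1-1 and H1-3 were low and the rest lay close together. H1-6, the testis form, had no peak. For H2A, 16 of 17 genes had the mark, with a median of 15.6-fold, from 11.3-fold at H2AC4 to 19.3-fold at H2AC7, and the testis gene H2AC1 lacked it. For H2B, 16 of 18 had it, with a median of 15.1-fold, from 7.74-fold at H2BC6 to 19.3-fold at H2BC7. The H3 genes were the class with no gap: 13 of 13 had H3K4me3, with a median of 12.8-fold, from 6.99-fold at H3C11 to 19.3-fold at H3C4. The H4 genes had it at 11 of 14, with the lowest median of the 5 classes, 10.7-fold, from 6.01-fold at H4C3 to 17.0-fold at H4C14. The ranges of the 5 classes overlapped. The value of 19.3-fold at H2AC7, H2BC7 and H3C4 is that of 1 peak over these genes.

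**Figure D1:**
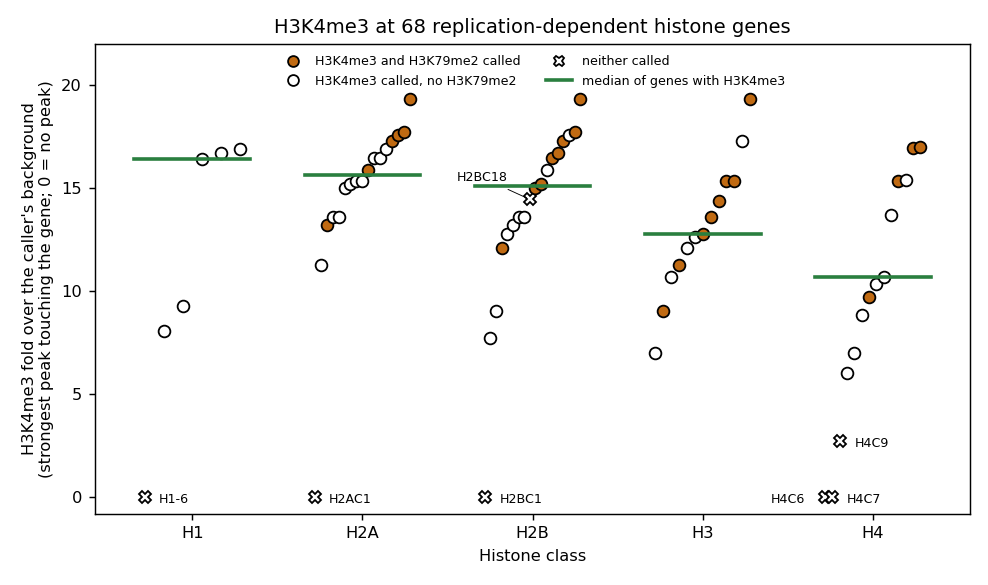
H3K4me3 fold over the caller's background (y axis, linear) of the strongest peak touching each of the 68 histone genes, by class (x axis), with 0 for a gene touched by no peak. Filled circles are the 26 genes that also had H3K79me2, open circles the 35 with H3K4me3 alone, crosses the 7 with neither, and green lines the class medians of genes with H3K4me3, which run from 10.7-fold in H4 to 16.4-fold in H1, where no point is filled.

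The 7 genes without a call were not alike. H2AC1 and H2BC1, the testis pair, lie by themselves on chromosome 6, and the nearest H3K4me3 peak was 5176 bp from H2AC1 and 4393 bp from H2BC1. H1-6 lies inside the largest cluster, yet the nearest H3K4me3 peak, that of its neighbour H4C3, ended 1618 bp from its record. H4C6 and H4C7, neighbours on chromosome 6, also had no peak over their records. Their nearest H3K4me3 peaks were 4671 bp and 2173 bp away, over H1-3 and over H3C7 with H2BC9. H4C9 was touched by a weak peak of 294 bp at 2.72-fold that covered 74.1% of its record but 21.1% of its window. H2BC18 missed the call for another reason. Its record of 29682 bp was covered over 19.6% of the window, but its start site lay inside a 5177 bp peak of 12.7-fold shared with H3C13. On the other side of the threshold stood H2BC4 with 36.5% and H2BC5 with 37.7%, both with long records and H3K4me3 at their start sites. Taken over start sites, 58 of the 63 histone genes with an annotated start in the promoter table had H3K4me3 over at least 25% of the 500 bp on each side (92.1%), against 68.9% of 15749 other genes. H4C9 and H2BC18 are among these 58.

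Promoters of unmarked genes are shown beside strongly marked genes of the same class. Each sequence runs from 250 bases before to 50 bases after the start site on the strand of the gene, from RefSeq on GRCh38.p14. Capitals mark exact matches on either strand to TATAAA (the TATA box), to CCAAT (the CCAAT box) and to ATTTGCAT (the octamer). A match on the other strand appears as its reverse complement, and other forms of a motif, such as tatataa, are not marked. H2BC1 (chr6:25726527-25726826, plus strand) had no H3K4me3 peak, and H2BC7 (chr6:26199266-26199565, plus strand) had the 19.3-fold peak.
H2BC1: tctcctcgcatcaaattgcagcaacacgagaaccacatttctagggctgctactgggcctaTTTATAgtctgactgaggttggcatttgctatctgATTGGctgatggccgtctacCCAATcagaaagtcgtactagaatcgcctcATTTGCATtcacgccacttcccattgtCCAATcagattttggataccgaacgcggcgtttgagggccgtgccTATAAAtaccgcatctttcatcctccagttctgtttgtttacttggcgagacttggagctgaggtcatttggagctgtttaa
H2BC7: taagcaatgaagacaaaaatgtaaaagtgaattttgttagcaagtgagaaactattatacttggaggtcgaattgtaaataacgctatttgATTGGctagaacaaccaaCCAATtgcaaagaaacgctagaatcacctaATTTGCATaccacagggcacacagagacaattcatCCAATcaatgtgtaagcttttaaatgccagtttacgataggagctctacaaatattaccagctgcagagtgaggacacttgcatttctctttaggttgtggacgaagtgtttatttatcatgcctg
H1-6 (chr6:26108086-26108385, minus strand) had no peak, and H1-5 (chr6:27867539-27867838, minus strand) had the strongest of the H1 class, 16.9-fold.
H1-6: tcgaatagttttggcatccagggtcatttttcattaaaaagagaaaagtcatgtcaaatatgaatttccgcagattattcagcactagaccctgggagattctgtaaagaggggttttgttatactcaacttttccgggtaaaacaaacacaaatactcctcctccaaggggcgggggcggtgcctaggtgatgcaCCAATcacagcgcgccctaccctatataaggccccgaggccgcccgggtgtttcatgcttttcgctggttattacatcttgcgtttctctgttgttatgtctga
H1-5: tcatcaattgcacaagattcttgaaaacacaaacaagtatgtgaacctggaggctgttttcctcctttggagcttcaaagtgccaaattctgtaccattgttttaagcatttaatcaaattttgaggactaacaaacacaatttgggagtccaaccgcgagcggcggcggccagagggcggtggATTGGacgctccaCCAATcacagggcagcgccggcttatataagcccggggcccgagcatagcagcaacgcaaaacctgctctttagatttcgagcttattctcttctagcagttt
H4C6 (chr6:26240143-26240442, plus strand) and H4C7 (chr6:26246947-26247246, minus strand) had no peak. H4C12 (chr6:27831511-27831810, minus strand) had 15.4-fold.
H4C6: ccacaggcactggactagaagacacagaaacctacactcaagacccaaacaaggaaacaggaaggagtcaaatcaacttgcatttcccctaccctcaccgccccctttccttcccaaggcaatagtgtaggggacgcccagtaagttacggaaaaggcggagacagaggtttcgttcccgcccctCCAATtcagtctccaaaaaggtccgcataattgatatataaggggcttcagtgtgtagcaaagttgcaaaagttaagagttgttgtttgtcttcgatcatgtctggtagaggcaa
H4C7: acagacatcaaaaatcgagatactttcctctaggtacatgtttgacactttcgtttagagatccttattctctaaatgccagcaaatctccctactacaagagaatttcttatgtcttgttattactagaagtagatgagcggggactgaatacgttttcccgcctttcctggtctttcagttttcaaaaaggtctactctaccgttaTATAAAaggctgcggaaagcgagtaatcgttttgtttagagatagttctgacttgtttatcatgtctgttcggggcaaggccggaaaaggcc
H4C12: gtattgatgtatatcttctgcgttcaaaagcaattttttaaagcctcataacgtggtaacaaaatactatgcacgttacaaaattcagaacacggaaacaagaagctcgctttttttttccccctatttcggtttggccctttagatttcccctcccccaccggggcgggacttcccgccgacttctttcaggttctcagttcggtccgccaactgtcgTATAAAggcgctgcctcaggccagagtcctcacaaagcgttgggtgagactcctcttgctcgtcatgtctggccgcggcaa

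Both marked and unmarked genes of these held the motifs. H2BC1, without H3K4me3, held all 3, while H2BC7, with the strongest peak, held the CCAAT box and the octamer and no TATA box. H1-6 and H1-5 both held the CCAAT box and no exact match to TATAAA or the octamer, though both held tatataa before the start. H4C7 and H4C12 both held the TATA box alone. H4C6 had exact matches to the CCAAT box alone, and it too held tatataa before the start. Over the family, 54 of 63 promoters held the CCAAT box (85.7%), against 36.1% of 15749 other promoters. An exact TATAAA was in 41 of 63 (65.1%), against 9.42%. The octamer was in 26 of 63 (41.3%), against 1.54%. Counts of the octamer differed by class: it was in 11 of 16 H2A, 14 of 18 H2B and 1 of 11 H3 promoters, and in 0 of 6 H1 and 0 of 12 H4 promoters. The H3 promoter was that of H3C4, whose start site is also that of H2AC7. Many H2A and H2B genes lie close together and are transcribed away from each other, so their promoter windows overlap. A match on either strand is then counted for both genes, and the counts of all the motifs are not counts of separate sites. The CCAAT box was in every H1, H2A, H2B and H3 promoter of the table and in 3 of 12 H4 promoters. H4C1, H4C3, H2AC12, H3C11 and H3C12 have no entry in the promoter table.

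Histone promoters were poor in CpG dinucleotides for genes so widely marked. They held a median of 11 CpG, from 3 at H2BC3 to 27 at H2AC18 and H2AC19, against a median of 22 in the other genes and 24 in the other short genes with H3K4me3. Median G+C content was 43% in histone promoters, against 62.7% in the other genes. Among histone genes with at most 11 CpG, 30 of 32 had H3K4me3 by the start-site rule (93.8%), against 23% of 4715 other genes with as few. The 7 histone genes without an H3K4me3 call had a median of 12 CpG, within the range of those with it.

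Neighbouring histone genes shared their H3K4me3 peaks. The records were touched by 39 H3K4me3 peaks, and 21 of these lay over at least 2 records, 50 genes in all. The longest, 17180 bp at 15.4-fold on chromosome 1 from 149838474 to 149855653, touched H3C14, H2AC18, H4C15, H2AC19 and H3C15, and so spanned the copied genes of both H3 and H2A. Another of 10173 bp at 13.6-fold on chromosome 6 from 27806155 to 27816327 held H2BC13, H2AC13, H3C10, H2AC14 and H2BC14. H4C15 had its start site outside the 17180 bp peak, under one of 5973 bp at 17.0-fold. Peaks with 3 genes were those over H3C4, H2AC7 and H2BC7 (6978 bp, 19.3-fold), over H2BC21, H2AC20 and H2AC21 (6191 bp, 16.5-fold) and over H3C12, H2AC17 and H2BC17 (6190 bp, 17.3-fold). The 39 peaks had a median length of 4736 bp and a median fold of 13.6, against 850 bp and 2.59-fold over the whole H3K4me3 list. The whole list is not limited to peaks over genes, and no such median was taken over other marked genes. Peaks over at least 2 histone genes had a median of 5661 bp, and those over 1 gene a median of 3016 bp.

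H3K79me2 peaks, in contrast, were mostly of 1 gene. Records were touched by 25 H3K79me2 peaks with a median length of 1658 bp and a median of 2.28-fold, against 666 bp and 2.13-fold over that list. Of these, 3 touched 2 records, and each such pair was a record nested in another: H4C15 with H3C15, H3C4 with H2AC7, and H2BC12 with H4C9.

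Many H2A and H2B genes are arranged head to head, and the marks differed over the stretch they share. There were 13 pairs of histone genes transcribed away from each other with start sites at most 1000 bp apart, of which 11 paired H2A with H2B. The stretch between the records had a median of 235 bp, from 193 bp at H2AC15 and H2BC15 to 978 bp at H3C7 and H2BC9. H3K4me3 covered 100% of it in 12 pairs and 0% in the testis pair H2AC1 and H2BC1. In 11 pairs 1 H3K4me3 peak covered both records whole. H3K79me2 covered 0% of it in all 13.

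Members within 100 kb of each other fell into 6 clusters. The largest, on chromosome 6 from 26017032 to 26285534, held 32 genes of all 5 classes over 268503 bp. H3K4me3 was called at 29 of them and H3K79me2 at 12. H3K4me3 peaks covered 56.3% of the bases in its records and 29.5% of those between them, while H3K79me2 covered 22.9% and 16.1%. The long records of H2BC4 (10757 bp) and H2BC5 (13229 bp) make up much of its 43693 record bases and weigh on these shares. H3K4me3 covered 35.3% and 32.9% of these 2 records, and H3K79me2 covered 0% and 45.1%. Its 3 genes without H3K4me3 were H1-6, H4C6 and H4C7. The only other protein-coding record in this span is that of HFE, a regulator of iron uptake, which had H3K4me3 at a gene end and H3K79me2.

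The cluster of 16 genes on chromosome 6 from 27807479 to 27893891 was marked throughout by H3K4me3, at 16 of 16 genes and over 100% of record bases. H3K79me2 was called at 6 of the 16 and ran the other way, covering 8.72% of record bases and 20.6% of the bases between. All 16 records of this cluster are at most 3000 bp long. In the chromosome 1 cluster of 11 genes, from 149782689 to 149887965, H3K4me3 was called at 10 and H3K79me2 at 5, and the marks covered 39.3% and 28.5% of the span. The 5 genes on chromosome 6 from 27132316 to 27147562 had H3K4me3 at 4 and H3K79me2 at 2, H2AC11 and H2BC12. H2AC25 and H2BC26, a head-to-head pair on chromosome 1 from 228457364 to 228458558, lay whole under a 5658 bp H3K4me3 peak of 17.6-fold. H2AC1 and H2BC1 formed the sixth cluster, on chromosome 6 from 25726063 to 25727345, and 0% of it was covered by any of the marks.

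**Figure D2:**
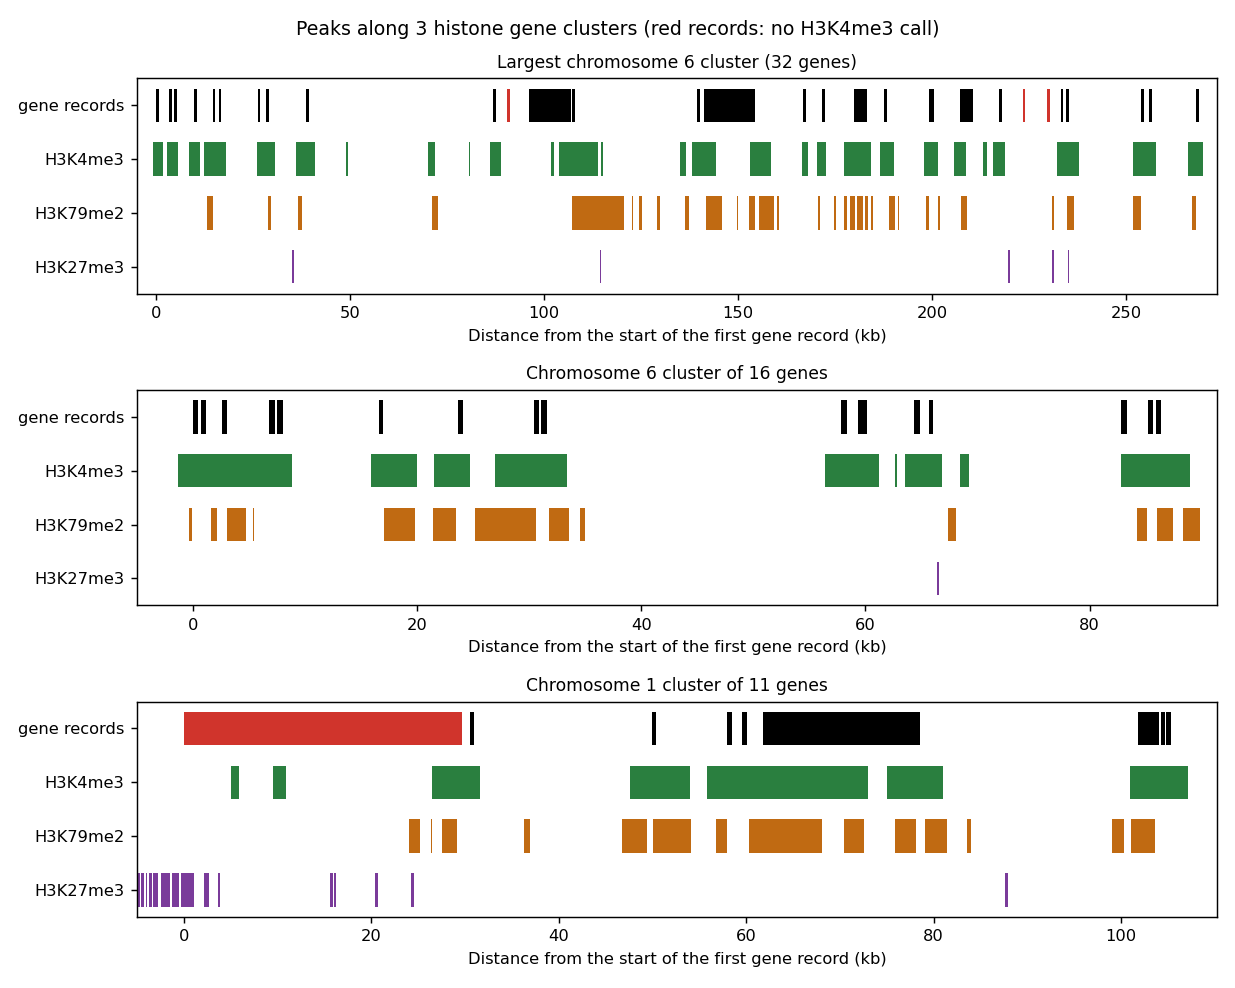
Peaks of the 3 marks along the chromosome 6 clusters of 32 and 16 genes and the chromosome 1 cluster of 11 genes, with the gene records in the top row of each panel, against distance in kb from the start of the first record. Very short records and peaks are drawn at a minimum width so that they can be seen, and red records are those without an H3K4me3 call (H1-6, H4C6 and H4C7 in the top panel, H2BC18 in the bottom one).

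H3K79me2 was called at a smaller share of histone genes with H3K4me3 than of other short genes with H3K4me3. Of the 61 histone genes with H3K4me3, 26 had H3K79me2 (42.6%), against 62.7% of the 625 other short genes with H3K4me3. With peaks of −log10 q of at least 1.3 alone, the counts were 11 of 61 (18%), against 49.3%. Among records of at most 600 bp, H3K79me2 was called at 20 of 49 histone genes with H3K4me3 (40.8%), against 17 of 26 others (65.4%). Between 600 bp and 1000 bp it was called at 0 of 5 histone genes, all of the H1 class, against 17 of 31 others (54.8%).

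By class, H3K79me2 was called at 8 of 13 H3, 8 of 18 H2B, 6 of 17 H2A and 4 of 14 H4 genes, and at 0 of 6 H1 genes. The share of the other short genes was 23.5%. Most of the H3 calls came from the flank. The record itself was covered over 0% at H3C14, H3C3 and H3C10, 2.62% at H3C8, 5.87% at H3C2 and 7.14% at H3C15. At H3C4 and H3C6 it was covered over 68.05% and 45.5%. The H1 records lay between 1058 bp and 16139 bp from the nearest H3K79me2 peak, H1-2 being the nearest and H1-6 the farthest. Over the 26 called genes the strongest peak ran from 1.81-fold at H3C2 to 4.36-fold at H2AC25, with a median of 2.48-fold. Their −log10 q ran from 0.36 to 8.38 with a median of 1.23. Within the H3K79me2 list these peaks ranked from the 4.70th to the 98.3rd percentile, with a median percentile of 83.1.

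The 11 genes called with −log10 q of at least 1.3 came from 4 classes. H2AC25 had the strongest peak, 4574 bp long with −log10 q of 8.38. H4C15 followed with 3.66-fold over 7803 bp, H2AC6 with 3.30-fold over 13193 bp and H3C6 with 2.92-fold over 1500 bp. The 7803 bp peak lay at the end of the H4C15 record far from its start site. The peak in this record nearest the start site had 2.76-fold over 2213 bp. H4C14 had 2.89-fold, H2AC15 2.78-fold, H2BC5 2.76-fold and H2BC9 2.71-fold. H3C14 had 2.63-fold, H3C8 2.60-fold and H2BC12 2.49-fold. H4C15, H2BC5, H2BC12 and H3C6 are among the 6 genes with records over 3000 bp. The other 7 have records of at most 1000 bp, and their peaks ran past the record or, at H3C14, lay beside it. H4C14, H3C14 and H4C15 are among the copies whose reads may not be placed uniquely.

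Just inside the 25% threshold for H3K79me2 stood H2BC8 with 25.7% of its window covered, H3C14 with 27.5% and H3C3 with 28.8%. Just outside it stood H2BC13 with 21.4%, H4C12 with 19.97% and H2AC19 with 16.9%.

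H3K79me2 lay after the histone genes more than over them. For 51 histone genes with H3K4me3, an annotated start site and a record of at most 3000 bp, peaks covered a mean of 13.9% of the record and 41.2% of the 2000 bp after its end. The 2000 bp before the start were covered by 20.9%. H3C4 and H2AC7, both among the 51, have the same annotated start. At 24 of the 51 genes at least 25% was covered after the record and less over it, at 10 genes both reached 25%, at 17 neither did, and at 0 genes the record alone did. The record itself held 0% in 37 of 51. Among 476 other short genes with H3K4me3 the record was covered by 54.5% and the stretch after it by 36.9%. The 40 of these with records of at most 1000 bp are nearer in length to histone genes, and they had 53.6% over the record and 66.6% after it.

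Examples were H4C11, with 0% of its record and 95.9% of the 2000 bp after it covered, H2BC15 with 0% and 91.8%, and H4C12 with 0% and 88.8%. H3C8 had 2.62% over the record and 100% after it, and H3C15 had 7.14% and 100%. These genes had no H3K79me2, or little, between start and end of the record and a peak beyond it. Most of these peaks were weak, with −log10 q of 0.99 after H4C11, 0.77 after H2BC15, 0.78 after H4C12 and 0.43 after H3C15. The peak after H3C8 had 1.32. H4C11, H4C12 and H3C15 are also among the near-exact copies, whose reads may not be placed uniquely. At H4C14, H2AC6 and H2AC15 the mark covered both, with 68.9%, 80.3% and 51.2% of the record and 100% after it. Coverage was higher over the record than after it at 5 genes: H3C4, H2BC7, H2AC11, H2BC17 and H2BC21. H2AC11 had 85.2% over the record and 26% after it. Since clusters are dense, the stretch after a record can hold another histone gene. In the 36 genes where it held none, coverage was 17.7% over the record and 46.8% after it. With peaks of −log10 q of at least 1.3 alone, the 51 genes had 5.44% over the record and 14.8% after it. At least 25% was then covered after the record and less over it at 5 genes, both reached 25% at 4, and neither did at 42.

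**Figure D3:**
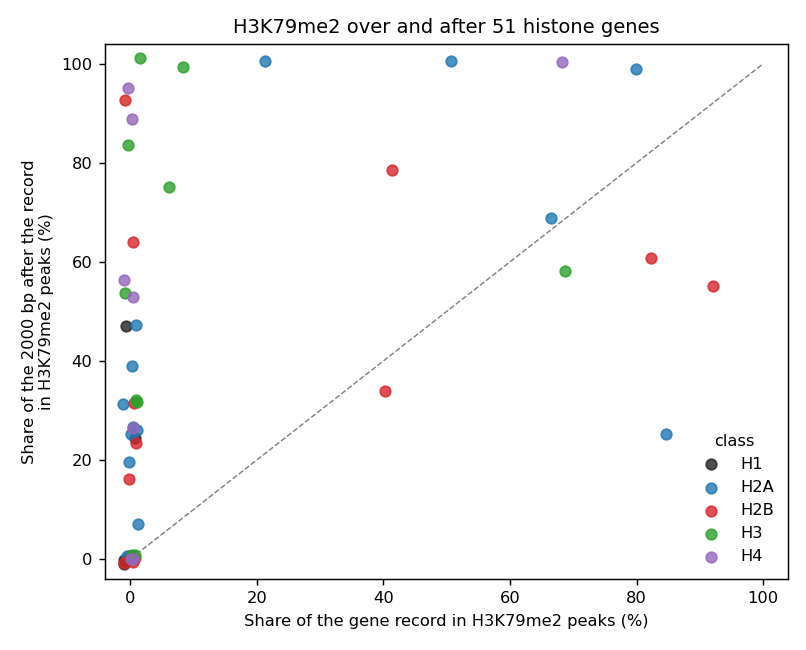
Share of the gene record (x axis, %) and of the 2000 bp after it (y axis, %) in H3K79me2 peaks, for 51 histone genes with H3K4me3, coloured by class; the dashed line marks equal shares, and points are moved slightly at random so that those in the same place can be seen. Most points off the origin stand along the left edge or above the line, 33 genes having more coverage after the record and 5 having more over it.

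Start sites of histone genes were almost free of H3K79me2 peaks. Of 56 histone genes with H3K4me3 and an annotated start, 0 had the start site inside an H3K79me2 peak, against 29.3% of 492 other short genes with H3K4me3. H4C9, which has no H3K4me3 call, was the only one of 63 histone genes with its start in such a peak, of 150 bp at 2.03-fold. In bins of 500 bp, mean H3K79me2 coverage at the 51 genes was 4.4% just before the start, 13.1% in the 500 bp after it and 44.5% between 1000 bp and 1500 bp. The other short genes had 28.8%, 46.6% and 61.8% in the same bins. H3K4me3 ran the other way. It covered 99.5% just before the start, 100% after it and 72.2% between 2000 bp and 2500 bp at histone genes, against 87.6%, 91.0% and 42.0% at the others. Most of the others have longer records. In the 2000 bp after the record, H3K4me3 covered 86.3% at the 51 histone genes and 81.1% at the 36 with no other histone gene there. It covered 33.8% at 476 other short genes, but 67.2% at the 40 of these with records of at most 1000 bp.

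**Figure D4:**
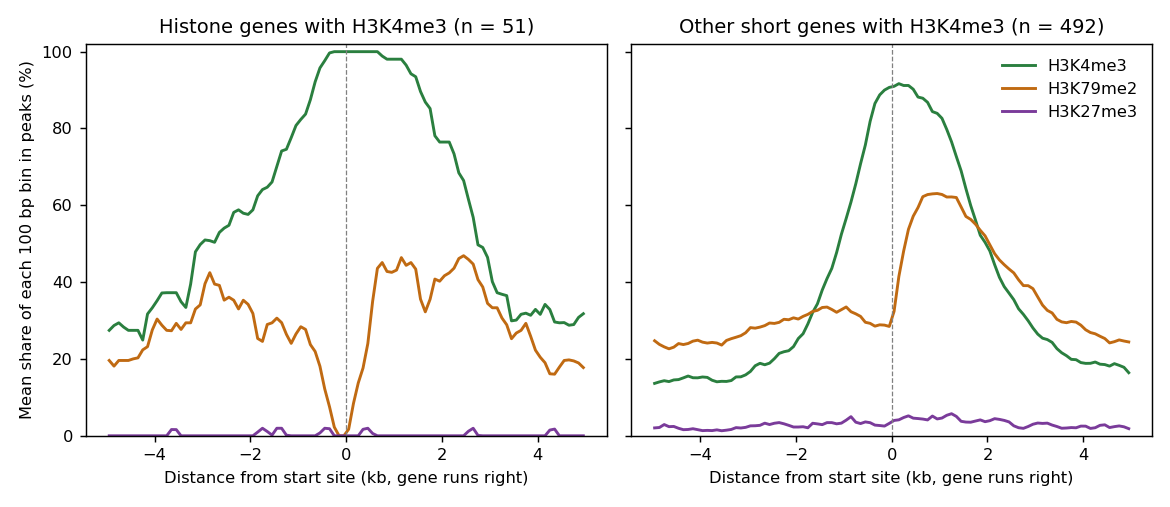
Mean share of each 100 bp bin covered by peaks (y axis, %) against distance from the start site in kb (x axis), for 51 histone genes with H3K4me3 on the left and 492 other short genes with H3K4me3 on the right. In the left panel H3K79me2 drops to the axis at the start site while H3K4me3 is at its top, and in the right panel H3K79me2 averages 28.8% in the 500 bp before the start.

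H3K27me3 peaks were rare over the family. Only 3 windows were touched: those of H2BC9 (14.8% covered, by a 217 bp peak of 2.50-fold), H4C13 (13.99%, by a 232 bp peak of 2.16-fold) and H2BC18 (10.3%). The H2BC18 peaks included one of 1453 bp at 4.53-fold at the far end of its record, which also holds the immune receptor gene FCGR1A. By the median, the nearest H3K27me3 peak was 19963 bp from a histone gene, against 5614 bp from the other short genes and 10008 bp from those with H3K4me3, and it was over 10000 bp away for 46 of 68. Of the 7 genes with no call, the 6 besides H2BC18 had no H3K27me3 peak over their records. It came within 684 bp of H2BC1 as a 347 bp peak of 1.82-fold, within 935 bp of H4C7 and within 3557 bp of H4C6, and lay 23146 bp from H1-6. H2AC1 and H2BC1 lie within the record of SLC17A1, a phosphate transporter gene, which had H3K27me3 at a gene end.

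Related genes were called by a gene-end rule that suits long genes. It asks for 25% coverage within 1000 bp of a gene end for H3K4me3 and H3K27me3, and of the record, or of 5000 bp inward from an end, for H3K79me2. By it the histone genes had H3K4me3 at 62 of 68, H3K79me2 at 15 and H3K27me3 at 1, H2BC18, against 67.8%, 51% and 9.12% of 19906 other protein-coding genes. Of 17 histone genes outside the family, mostly replication-independent variants, 14 had H3K4me3 and 12 had H3K79me2. H3-3A, a gene of the replacement histone H3.3, had H3K4me3 at 19.1-fold and H3K79me2 at 5.78-fold. H2AX, whose product is phosphorylated at DNA breaks, had 21.7-fold and 4.64-fold, and H2AZ1, a gene of the promoter variant H2A.Z, had 15.4-fold and 4.14-fold. The family genes called for H3K79me2 by the gene-end rule ran from 2.01-fold at H2AC11 to 3.66-fold at H4C15. The values of H3-3A, H2AX and H2AZ1 lay above that range. H2AC25, called only by the rule with 500 bp flanks, had 4.36-fold, which is above H2AZ1. The H2AZ1 peak was 41767 bp long over a record of 2188 bp. H4C16, an H4 gene alone on chromosome 12 with a record of 412 bp, had 16.5-fold and 2.26-fold. H1-8, H1-7 and H2BW1 had no H3K4me3, and these with H3-5 and H2AB1 had no H3K79me2. H3-5 and H2AB1 had H3K4me3 at 6.25-fold and 7.87-fold. H2BW1 was the only gene of this list with H3K27me3.

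The genes whose products transcribe the histone genes or process their mRNAs had H3K4me3 at 20 of 20, H3K79me2 at 18 and H3K27me3 at 0, against 67.8%, 51% and 9.12% of the other protein-coding genes by the same rule. NPAT had H3K4me3 at 17.0-fold and H3K79me2 at 5.36-fold, and SLBP had 17.6-fold and 4.51-fold. The cyclin E genes CCNE1 and CCNE2 were the exceptions for H3K79me2 by this rule. Both still had an H3K79me2 peak, of 150 bp at 2.27-fold for CCNE1 and of 1618 bp at 2.50-fold for CCNE2. Their H3K4me3 peaks stood at 18.7-fold and 23.6-fold.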

How the data were processed

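H3K4me3, H3K79me2 and H3K27me3 were mapped by ChIP-seq in MCF10A, with 1 library each. The tools named in the submitters' processing notes are Bowtie2 2.3.1 and MACS2 2.1.1, on hg38. A p threshold of 0.05 stands in the names of the deposited peaks, whose layout is that of broad peaks for H3K4me3 and H3K79me2 and of narrow peaks for H3K27me3. The authors' fold of a peak, a ratio, is relative to the caller's background, and the deposited −log10 p and −log10 q are the caller's values. The other deposited columns used are positions, with no unit. Peaks were called per library. Use of the input as a control and treatment of duplicates are not given in the sources used here.

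Gene records and promoters came from RefSeq tables of GRCh38.p14, the same build. Coverage was computed in Python 3.11.15 with pandas 2.3.3 and numpy 2.4.6, figures with matplotlib 3.10.9, and interval arithmetic was tested on simulated data. Start sites follow from promoter positions and were had for 63 of 68 members. Copies were judged by promoter, without gaps at the best offset; protein identity was not used. The members and lists were chosen with earlier results of these data known. Genes named were the class extremes in H3K4me3 fold, members with no call, those under the peaks holding most members, and list exceptions; others, such as the H3K79me2 examples, were named after their values were seen. Settings tried were other thresholds on q, fold and coverage, other windows, and leaving out copies.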

Additional observations from a re-analysis of the deposited data

How the results depend on the processing

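No paired analysis was possible because each mark had 1 library. Depth is unknown from peak lists, and no count has a replicate check. The counts of histone genes with H3K4me3 and with no mark stayed within 1.5 times under every setting run, as did the shared peaks and the clusters. H3K79me2 depended on the threshold: the 26 genes, all with H3K4me3 (38.2%, against 23.5% of other short genes), became 11 (16.2%, against 17.7%) with −log10 q of 1.3 or more, 1 (1.47%, against 4.93%) with −log10 q of 5 or more, and 0 (against 1.14%) with 5-fold or more. They became 9 where 50% had to be covered (13.2%, against 19%), 8 of them with H3K4me3, 14 without the flank (20.6%, against 23.2%), 15 by the gene-end rule (22.1%, against 23.2%) and 9 of 63 around start sites (14.3%, against 20.8%). In each of these the share of histone genes was below that of the other short genes, while it was above at 1 bp covered (51.5%, against 28.6%) and with 1000 bp on each side (44.1%, against 23.5%). H3K27me3 changed from 0 to 3 genes at 1 bp covered (4.41%, against 24.1% of other short genes). It changed to 1 without the flank (1.47%, against 8.08%) or by the gene-end rule (1.47%, against 11.1%). Mean H3K79me2 coverage became 5.44% of the record and 14.8% of the 2000 bp after it at −log10 q of at least 1.3. Leaving out members with near-identical promoters, a setting chosen after seeing the data, moved no count by over 1.5 times.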

Other observations

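Between the chromosome 6 clusters, the stretch of 289686 bp that follows H2AC1 and H2BC1 had H3K27me3 over 10.9% of its bases and H3K4me3 over 3.97%. The 846781 bp after the largest cluster had H3K27me3 over 5.05% and H3K4me3 over 12.7%, and the 659916 bp before the cluster of 16 genes had 0.641% and 17.1%. Within the cluster spans, 8 H3K4me3 peaks touched no histone gene record, from 1.87-fold to 13.0-fold, and 36 H3K79me2 peaks did not, from 1.70-fold to 2.63-fold.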
